A study of Mus musculus with 25 samples.

Results

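The heat-shock chaperones are a set of 10 named genes, Hspa1a, Hspa1b, Hspa8, Hsph1, Hsp90aa1, Dnajb1, Bag3, Hspb1, Hspb6 and Cryab. They were chosen by name, with earlier results of these data known. Of these, 8 were analysed among the 8829 genes of the gastrocnemius table, and Hspa1b and Hspa8 were not analysed here. The tissue came from male SAMP8 mice, an inbred senescence-accelerated strain that loses muscle mass and motor performance early. From 8 months of age, for 3 months, 14 mice received thymol, a monoterpenoid phenol of thyme and oregano, orally in corn oil at 20 mg per kg on each day of dosing (Thymol group), and 11 mice received the vehicle (Control group). All mice carried the same SAMP8 background, and no young mice or mice of another strain are compared here. RNA was profiled by 3′ mRNA sequencing, in which each transcript gives reads from its 3′ end only, so that levels of different genes can be set side by side without a correction for transcript length. Values are log2 of counts scaled to a common library size (CPM), and a mouse is named by its group and its own number in the labels.

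Heat-shock proteins are molecular chaperones that bind unfolded or strained proteins. HSP70 proteins refold clients with energy from ATP, J-domain proteins hand clients to them, HSP110 proteins exchange their nucleotide, and HSP90 proteins finish the folding of kinases and receptors. Small heat-shock proteins hold unfolding proteins without ATP, and in striated muscle they sit on desmin, actin and the Z-disc, where BAG3 links them to HSP70 for the disposal of damaged filamin. Heat-shock factor 1 drives the inducible members through heat-shock elements, inverted repeats of a short unit in their promoters.

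The members were described in 2 classes. The heat-inducible class held Hspa1a, the stress-inducible HSP70 (chr17:34969190-34972156, minus strand), Hsph1, an HSP110 (chr5:149614287-149636376, minus strand), Hsp90aa1, the inducible cytosolic HSP90 (chr12:110690605-110702728, minus strand), Dnajb1, an HSP40 of the J-domain family (chr8:83608193-83612653, plus strand), and Bag3, the co-chaperone of small heat-shock proteins and HSP70 (chr7:128523616-128546981, plus strand). The class called constitutive, as background knowledge of resting muscle has it and not by its level here, held the small heat-shock proteins Hspb1, known as HSP25 or HSP27 (chr5:135887919-135889563, plus strand), Hspb6, known as HSP20 (chr7:30552178-30555443, plus strand), and Cryab, αB-crystallin (chr9:50751325-50756636, plus strand). The classes are not exclusive, since Hspb1 and Cryab also answer heat-shock factor in many tissues. Positions are whole genes of GENCODE M21 on GRCm38. Cryab overlaps Hspb2, Hspb6 overlaps Proser3 and Lin37, and Hspa1a overlaps Gm20481, in each case on the other strand. Hspb6 also overlaps the microRNA gene Gm38670, and Bag3 overlaps 2610306O10Rik, on the same strand. The strand setting of the counting is not given in the sources used here. Of the 31-base words in the last 500 bases of the longest Hspb1 transcript, 27% are also found in transcripts of other genes. The pseudogene Hsp25-ps1 shares the most of them, so part of the Hspb1 reads is uncertain in origin. The last 500 bases of Hspa1a share none with another gene.

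Promoter windows of 250 bases before the RefSeq start (GRCm38.p6) were held for 6 of the 8 members, some with more than 1 start. They were searched for a pair of heat-shock element units, GAANNTTC or TTCNNGAA, each of which reads the same on both strands, and for 3 alternating units in a row. A pair lay before at least 1 start of Hspa1a, Hsph1, Hspb1 and Hspb6, 4 of the 6 members. Of the 7049 genes of the table with a window, 815 had such a pair. Counted by window, a pair was in 5 of the 9 member windows. The share was 12.8% of all 32851 windows of that length and 9.62% of the 9105 windows of genes in the table. Both windows of Hsph1 held the same pair. No pair was found in the windows of Dnajb1 or Bag3, which says only that these letters are not in those windows. Runs of 3 alternating units were in 0 of the 9 member windows and in 0.466% of all windows. The stretch around each pair is printed below in the direction of transcription, with the units in capitals, because these are the members with a pair of units in a window searched. The stretches run from chr17:34972233-34972352 for Hspa1a, chr5:149636342-149636461 for Hsph1, chr5:135887730-135887849 for Hspb1 and chr7:30553089-30553208 for the second start of Hspb6.
Hspa1a: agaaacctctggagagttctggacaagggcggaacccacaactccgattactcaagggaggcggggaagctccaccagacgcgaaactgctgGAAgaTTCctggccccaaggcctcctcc
Hsph1: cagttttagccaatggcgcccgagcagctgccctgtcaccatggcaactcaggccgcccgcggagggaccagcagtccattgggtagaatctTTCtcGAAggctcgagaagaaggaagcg
Hspb1: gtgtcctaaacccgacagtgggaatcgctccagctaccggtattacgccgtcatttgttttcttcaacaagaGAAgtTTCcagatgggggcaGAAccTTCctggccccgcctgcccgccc
Hspb6: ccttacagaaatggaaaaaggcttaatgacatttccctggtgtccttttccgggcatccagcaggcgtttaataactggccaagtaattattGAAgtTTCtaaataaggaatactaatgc
Hspb1 holds its pair of units at -117 and again at -97 from the start, and the single pair of Hspa1a begins at -104. A match is a description of the letters and not of binding.

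Sequencing gave 4463818 to 9463418 reads per mouse, with a median of 7503259, and medians of 7554333 in Control and 7479077 in Thymol mice. Muscle-fiber transcripts (8 of 8 listed genes, most of them of fast fibers, such as Myh4 and Actn3) summed to 119300 to 165500 CPM over all mice, as a check of the tissue. Slow-fiber transcripts (10 of 10 listed) summed to 971.5 to 8022 CPM in Control and 212 to 10160 CPM in Thymol mice, a wide range in both groups. In whole muscle, fewer cells of a type and less RNA per cell cannot be told apart.

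Levels ran from the small heat-shock proteins Hspb6 and Cryab, among the most abundant transcripts of the muscle, down to Hspa1a and Dnajb1, and the classes did not separate by level. Hspb6 ranked 46 of 8829 genes, with a mean of 1441 CPM over all mice, and Cryab ranked 90, with 693.5 CPM. Bag3, of the inducible class, followed at rank 808 with 111.5 CPM, above Hspb1 at rank 1517 with 68.5 CPM. Hsph1, at 27.7 CPM, and Hsp90aa1, at 18.97 CPM, lay near the middle of the table. Dnajb1 and Hspa1a lay at ranks 6793 and 7167. This order of levels was the same for each pair of neighbors in 24 or 25 of 25 mice, with 1 exception, Dnajb1 and Hspa1a, where Dnajb1 was the higher in 13 of 25 mice and the mean difference of 0.17 log2 was smaller than its SD between mice of 1.28.

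Thymol was compared with Control to ask whether 3 months of treatment changed chaperone transcripts in aged muscle. None of the 8 members passed the test, and for each the values of both groups overlapped. With limma and Benjamini-Hochberg adjustment over all 8829 genes, 0 of 8 members had an adjusted p under 0.05, as did 0% of the table. At an unadjusted p under 0.05, 0 of 8 members passed, beside 3.53% of the table (162 genes higher and 150 lower in Thymol). The adjusted p was 0.9999 for each member.

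**Figure D1:**
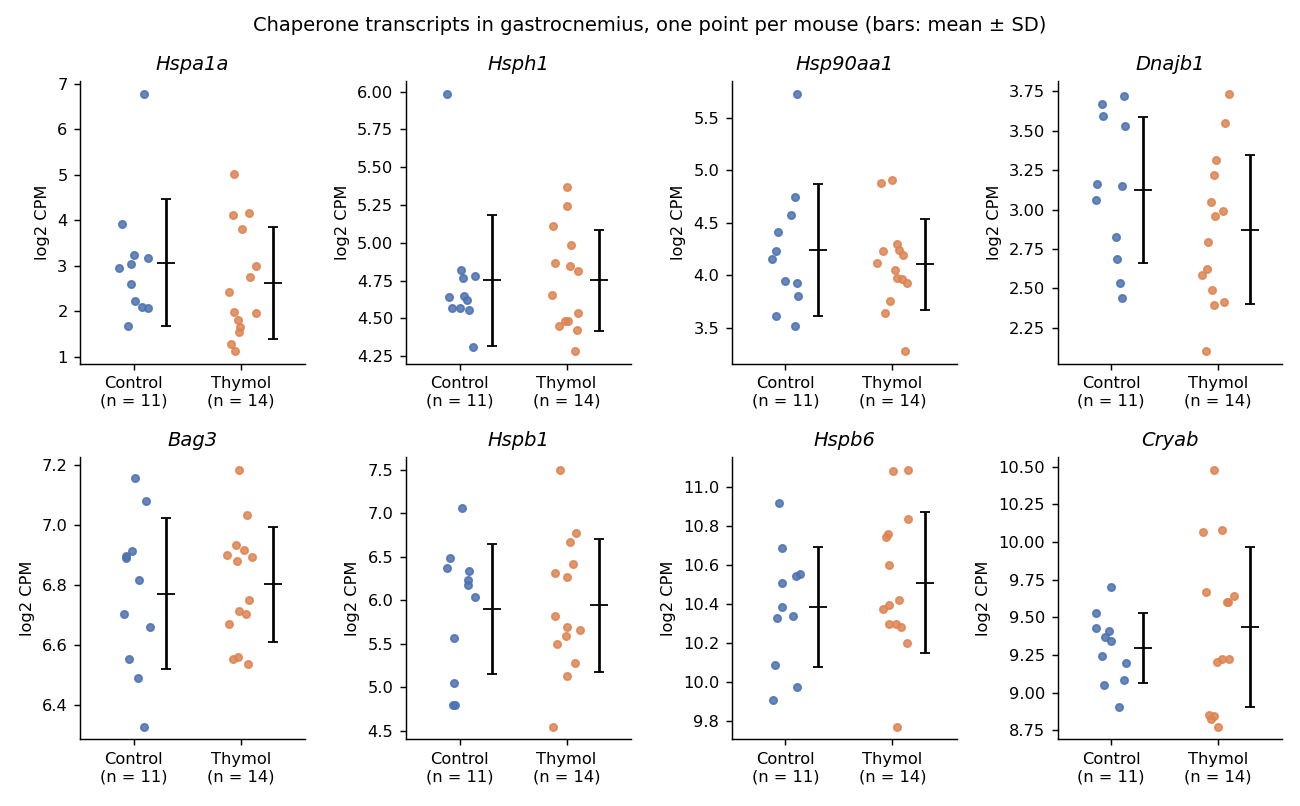
Level of the 8 chaperone genes in log2 CPM on the vertical axis, with 1 point per mouse, 11 Control mice in blue and 14 Thymol mice in orange, and the mean ± SD beside each group. The vertical axes differ between panels and do not start at 0. The groups overlap in every panel, and 1 Control mouse lies far above the others for Hspa1a (6.78), Hsph1 (5.99) and Hsp90aa1 (5.73).

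Hspa1a had the widest range. In Control mice its log2 CPM ran from 1.67 through a median of 2.94 to 6.78, which are 21 to 800 reads, and in Thymol mice from 1.13 through 2.20 to 5.02, which are 14 to 296 reads. The highest value was in Control 31 and the next in Thymol 20, and the Control median exceeded the level of 9 among the 14 Thymol mice. The Control mean was 3.07 ± 1.39 (SD, n = 11) against 2.62 ± 1.23 (SD, n = 14) under thymol, a difference of -0.45 log2 (SE 0.466, limma unadjusted p = 0.341, 95% interval -1.40 to 0.50). That difference ran from -0.64 log2 without Thymol 20 to -0.08 log2 without Control 31, and it was -1.07 log2 with the first number of the labels as a block, a number not shown to pair the mice, and 0.02 log2 with the immediate-early transcripts as a covariate, a list whose own mean difference, Thymol minus Control, was -0.24 log2.

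The other inducible members differed less. Hsph1 ran from 4.31 through a median of 4.64 to 5.99 log2 CPM in Control and from 4.29 through 4.73 to 5.37 in Thymol mice. Hsp90aa1 ran from 3.52 through 4.15 to 5.73 in Control and from 3.28 through 4.08 to 4.91 in Thymol mice. In both genes Control 31 was the highest mouse and Thymol 21 the lowest, and 13 of 14 Thymol mice lay inside the Control range. The difference, Thymol minus Control, was 0.0019 log2 for Hsph1 (SE 0.141) and -0.14 log2 for Hsp90aa1 (SE 0.192). Dnajb1 ran from 2.44 through 3.15 to 3.72 log2 CPM in Control and from 2.10 through 2.88 to 3.73 in Thymol mice. For this J-domain protein the Control median exceeded 10 of the 14 Thymol values, and the difference of -0.25 log2 (SE 0.178, 95% interval -0.62 to 0.11) had the smallest unadjusted p of the members in limma, 0.169. Bag3 was the steadiest, from 6.33 through 6.82 to 7.16 in Control and from 6.54 through 6.82 to 7.18 in Thymol mice. Its difference was 0.03 log2 (SE 0.0843), and the 95% interval from -0.14 to 0.20 was the narrowest of the members.

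The 3 small heat-shock proteins had small positive differences, none of which passed the test, and that of Hspb1 turned to -0.34 log2 with the block and to -0.08 log2 without Thymol 20. Hspb1 ran from 4.79 through a median of 6.17 to 7.06 log2 CPM in Control and from 4.55 through 5.76 to 7.50 in Thymol mice. Hspb6 ran from 9.91 through 10.38 to 10.92 in Control and from 9.77 through 10.41 to 11.09 in Thymol mice. Cryab ran from 8.90 through 9.34 to 9.70 in Control and from 8.77 through 9.41 to 10.48 in Thymol mice. Only 7 of 14 Thymol mice lay inside the Control range of Cryab, the others being above or below it, and the SD was 0.23 in Control and 0.53 in Thymol mice, a difference in spread that was not tested. The difference in level was 0.04 log2 for Hspb1 (SE 0.269), 0.13 log2 for Hspb6 (SE 0.124) and 0.14 log2 for Cryab (SE 0.154). Without Control 23 that of Hspb6 was 0.0776 log2, and without Thymol 20 that of Cryab was 0.0585 log2.

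**Figure D2:**
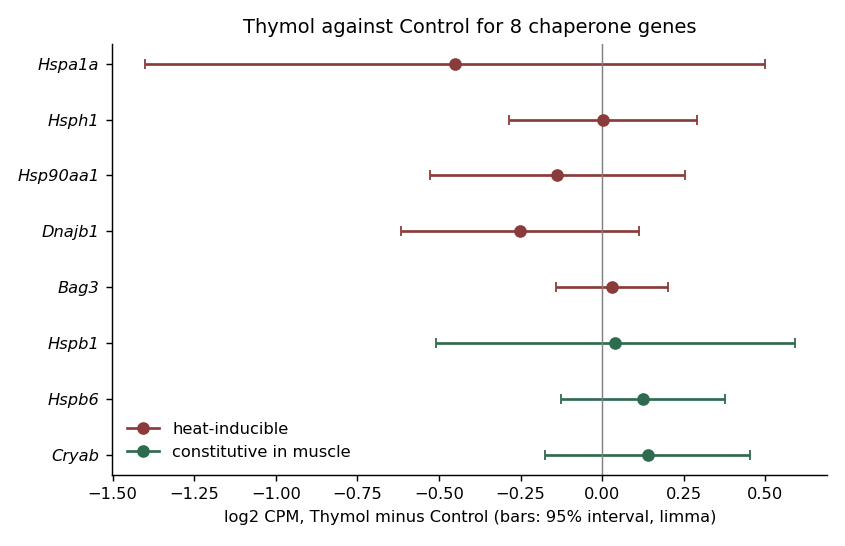
Thymol minus Control in log2 CPM on the horizontal axis for each member, with the 95% interval of limma over 11 Control and 14 Thymol mice. All 8 intervals include 0, the widest being that of Hspa1a (-1.40 to 0.50) and the narrowest that of Bag3 (-0.14 to 0.20).

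Inducible and constitutive members were then set against each other within each mouse, as the mean log2 CPM of the 5 inducible genes minus that of the 3 constitutive genes. Control mice averaged -4.14 ± 0.46 (SD, n = 11), and Thymol mice averaged -4.40 ± 0.34 (SD, n = 14). It ran from -4.60 to -3.00 in Control and from -4.97 to -3.83 in Thymol mice, so the groups overlapped. The difference was -0.26 log2, and it was -0.15 log2 without Control 31. The SD between mice was 0.395, which is the spread of single mice and not the error of the difference. No test was made of this score, since the classes were chosen with earlier results of these data known.

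Among the other chaperone genes none passed either. Of 92 listed genes outside the members, 86 were tested, and 0 had an adjusted p under 0.05 in limma. At an unadjusted p under 0.05, 3 were higher and 1 was lower in Thymol, 4 of 86 genes beside 3.53% of the table and so near the background, with a median difference of -0.0018 log2 over the 86 genes and of -0.0014 over the table. The 3 higher genes were Sgta (0.12 log2, p = 0.0306) and Stub1 (0.10 log2, p = 0.0367), a co-chaperone and the ubiquitin ligase CHIP, and Dnajc15 (0.15 log2, p = 0.0413), a mitochondrial J-domain protein, all by limma before adjustment. The lower gene was Hsf1, heat-shock factor 1 (-0.19 log2, limma unadjusted p = 0.0406).

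The spread between mice differed widely from member to member. Between the lowest and the highest mouse Hspa1a differed 50.4-fold, Hspb1 7.72-fold, Hsp90aa1 5.47-fold, Cryab 3.26-fold, Hsph1 3.25-fold, Dnajb1 3.10-fold, Hspb6 2.49-fold and Bag3 1.81-fold. The SD within groups was 1.30 log2 for Hspa1a and 0.757 log2 for Hspb1, larger than that of 99.6% and 98.3% of all genes, and 0.22 log2 for Bag3, larger than that of 33.0%. Counting alone would give SDs of 0.224 log2 for Hspa1a and 0.0145 log2 for Hspb6. The measured SD exceeded the counting SD 23.4 times for Hspb6, 20.1 times for Cryab, 10.4 times for Hspb1 and 5.83 times for Hspa1a, and 2.46 times for Dnajb1, against a median of 2.12 over all genes. This ratio grows with abundance, and the SD of Hspb6 itself, 0.339 log2, was larger than that of 66.9% of genes. The counting SD covers the sampling of reads only and not errors of amplification.

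**Figure D3:**
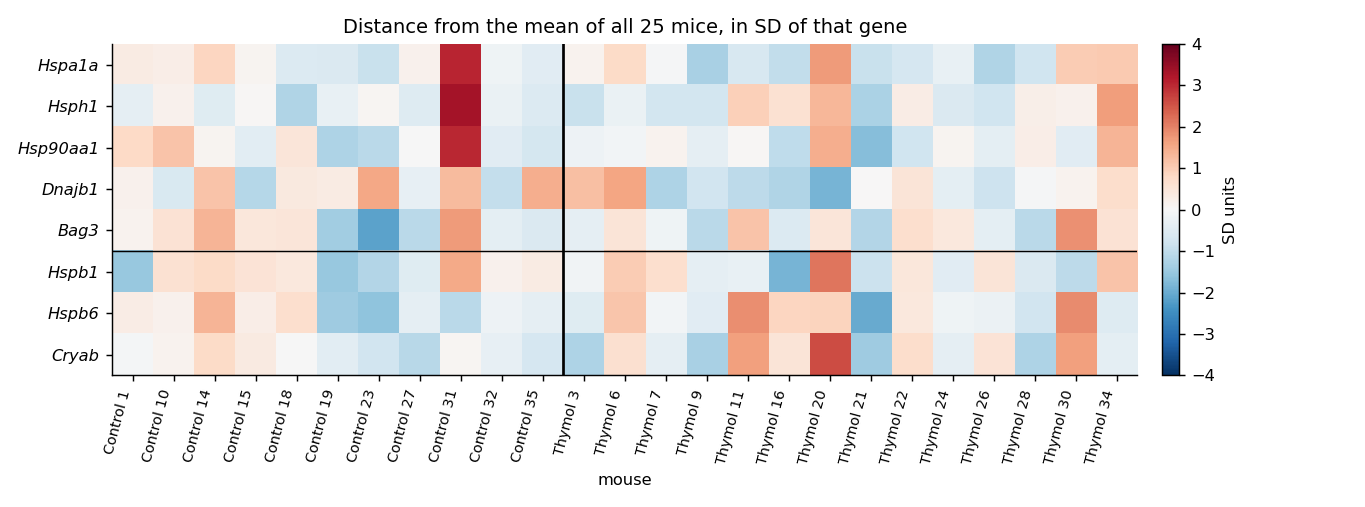
Distance of each mouse from the mean of all 25 mice in SD units of that gene (color), with members in rows, inducible genes above the thin line, and mice in columns, Control left and Thymol right of the thick line. Control 31 stands at 3.06, 3.31 and 3.02 SD for Hspa1a, Hsph1 and Hsp90aa1, while its Hspb6 stands at -1.09 SD.

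Single mice carried part of the spread of Hspa1a, Hsph1 and Hsp90aa1. With a mouse left out, their SD within groups fell as low as 1.04, 0.274 and 0.421 log2, from 1.30, 0.380 and 0.525. The SD moved less for the other members. It ran from 0.692 to 0.773 for Hspb1, 0.439 to 0.478 for Dnajb1 and 0.202 to 0.225 for Bag3. For Hspb6 it ran from 0.306 to 0.346 and for Cryab from 0.373 to 0.438. Control 31 was highest of all mice in Hspa1a, Hsph1 and Hsp90aa1, and ranked 2 in Bag3 and Hspb1, yet 22 of 25 in Hspb6 and 11 in Cryab. Its levels were 18.1 times the median of all mice for Hspa1a, 2.52 times for Hsph1, 3.07 times for Hsp90aa1 and 0.808 times for Hspb6. Thymol 20 ranked 2 in Hspa1a and Hsp90aa1, 3 in Hsph1 and 1 in both Hspb1 and Cryab, and was the lowest mouse in Dnajb1. Its Hspa1a stood at 5.36 times, its Hspb1 at 2.75 times and its Cryab at 2.20 times the median. Thymol 34 ranked 2 or 3 in Hspa1a, Hsph1, Hsp90aa1 and Hspb1, with Hspb6 at rank 20. Thymol 21 was the lowest mouse in Hsph1, Hsp90aa1, Hspb6 and Cryab. The mice high in the HSP70, HSP90 and HSP110 genes therefore came from both groups.

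Co-variation of the members was measured by Pearson's r and Spearman's rho over the 25 mice, with a two-sided permutation test of 100000 draws, whose smallest p is 1e-05, and with adjustment over the other 8828 genes of the table for each member. For a pair, the larger of the 2 adjusted values is given. Of 28 pairs, 26 had r above 0, and 13 had an unadjusted p under 0.05 by Pearson and 11 by Spearman. All 13 were positive, beside 3.85% of all genes over the 8 members by the same rule. After adjustment 1 pair passed, Hspb6 and Cryab. With Hspb6 0.759% of the table (67 genes) passed with a positive r, and with Cryab 0.159% (14 genes), while 0% passed with Hspa1a, Hsph1, Hsp90aa1, Dnajb1, Bag3 and Hspb1. A further 46 genes with Hspb6 and 3 with Cryab passed with a negative r. At an unadjusted p under 0.05, the positive genes numbered 278 for Hspa1a, 254 for Hsph1, 246 for Hsp90aa1, 237 for Dnajb1, 463 for Bag3 and 328 for Hspb1. Since a lone gene at the smallest p would have an adjusted value of 0.0883, the number of draws limits these calls.

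**Figure D4:**
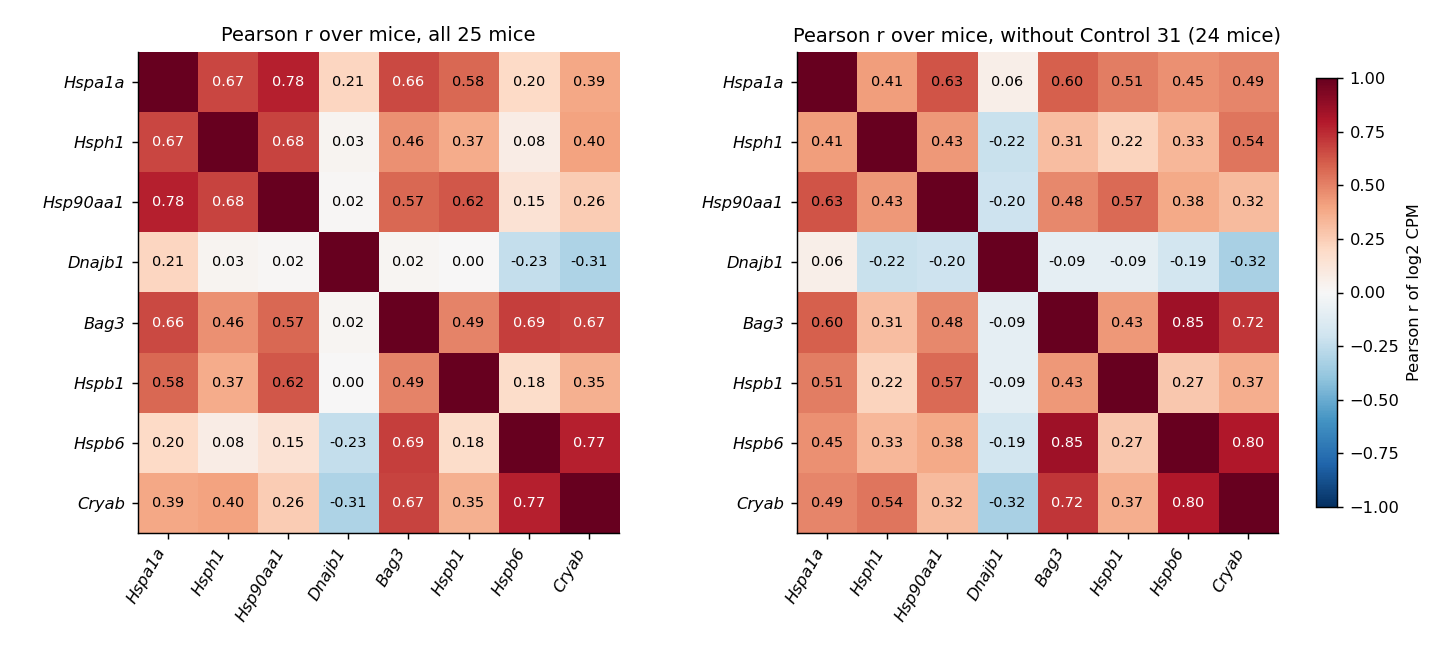
Pearson r of log2 CPM between members, as numbers and color, over all 25 mice (left) and over 24 mice without Control 31 (right). Hspb6 and Cryab stay together (0.77 and 0.80), the pair Hspa1a and Hsph1 drops from 0.67 to 0.41, and Dnajb1 is near 0 with the other inducible members.

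Among the inducible members, Hspa1a and Hsp90aa1 went together most closely. Their r was 0.777 (permutation p = 3e-05, adjusted 0.132) and their rho 0.608 (permutation p = 0.0016, adjusted 0.514), and each was the other's most similar gene of 8828. Without Control 31 and Thymol 20, the mice farthest from the Hspa1a median, r was 0.531. Within groups r was 0.872 in Control and 0.658 in Thymol mice. Hsph1 was close to both by r, 0.671 with Hspa1a and 0.676 with Hsp90aa1, but not by rank, with rho of 0.362 and 0.27. Without the 2 farthest mice, Control 31 together with Thymol 20 or Thymol 34, these r were 0.260 and 0.283 (unadjusted permutation p = 0.231 and 0.191). Both relations thus depended in part on those mice. Leaving out mice at the ends of a range also lowers r by itself. Without Control 31 alone the r of Hsph1 was 0.414 with Hspa1a and 0.430 with Hsp90aa1. Within groups these were 0.852 and 0.719 in Control and 0.493 and 0.632 in Thymol mice. Hspb1 had r of 0.619 with Hsp90aa1 and 0.577 with Hspa1a (permutation p = 0.00091 and 0.00211, adjusted 0.389 and 0.49), with rho of 0.558 and 0.534. The first was 0.553 without Control 31 and Thymol 21, the second 0.359 without Control 31 and Thymol 20. The r of Hspb1 was 0.352 with Cryab and 0.180 with Hspb6, and the differences between these r were not tested.

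The pair that passed after adjustment was that of 2 small heat-shock proteins of the sarcomere. Hspa1a and Hsp90aa1 had a like r of 0.777 at the same permutation p of 3e-05, but an adjusted value of 0.132. Adjustment was made for each member and is milder where many genes go with it, as with Hspb6. Passing thus does not rank this pair above that of Hspa1a and Hsp90aa1. Hspb6 and Cryab had r of 0.775 (permutation p = 3e-05, adjusted 0.0221) and rho of 0.841 (permutation p = 1e-05, adjusted 0.0441). Their r was 0.691 without Thymol 30 and Thymol 11, the mice farthest from the Hspb6 median, 0.646 in Control and 0.840 in Thymol mice. Hspb6 had r of 0.197, 0.0776 and 0.146 with Hspa1a, Hsph1 and Hsp90aa1, and for Cryab these were 0.390, 0.399 and 0.257. These r changed without Control 31, the mouse with the highest Hspa1a and a low Hspb6. Then r was 0.455 for Hspb6 with Hspa1a, 0.332 for Hspb6 with Hsph1 and 0.536 for Cryab with Hsph1. Without Control 31 and Thymol 34, the mice farthest from the Hsph1 median, Hsph1 had r of 0.464 with Hspb6 and 0.679 with Cryab. The unadjusted permutation p were 0.0246 and 0.00034, in a setting that leaves out mice by their values. Over all mice the unadjusted permutation p were 0.711 and 0.0486, adjusted 0.974 and 0.821. Within groups, Hsph1 with Hspb6 was -0.42 in Control and 0.499 in Thymol mice, a difference that was not tested.

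Bag3 went with members of both classes. Its r was 0.691 with Hspb6, 0.675 with Cryab, 0.657 with Hspa1a, 0.573 with Hsp90aa1 and 0.495 with Hspb1. The pair with Hspb6 had an adjusted p of 0.0234 among the genes compared with Hspb6 and of 0.217 among those compared with Bag3, with a permutation p of 0.0001. The rho was 0.648 with Hspb6 (permutation p = 0.00071, adjusted 0.226) and 0.743 with Cryab (permutation p = 4e-05, adjusted 0.147). Without Control 23 and Thymol 30, the mice farthest from the Bag3 median, r was 0.572 with Hspb6 and 0.635 with Cryab, and without Control 31 its r with Hspb6 was 0.847. Dnajb1 stood apart, with r from -0.31 with Cryab to 0.21 with Hspa1a, and none of its 7 pairs had an unadjusted permutation p under 0.05. The median r was 0.515 over the 10 inducible pairs, 0.352 over the 3 constitutive pairs and 0.372 over the 15 pairs between the classes, and without Control 31 these were 0.363, 0.366 and 0.431.

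**Figure D5:**
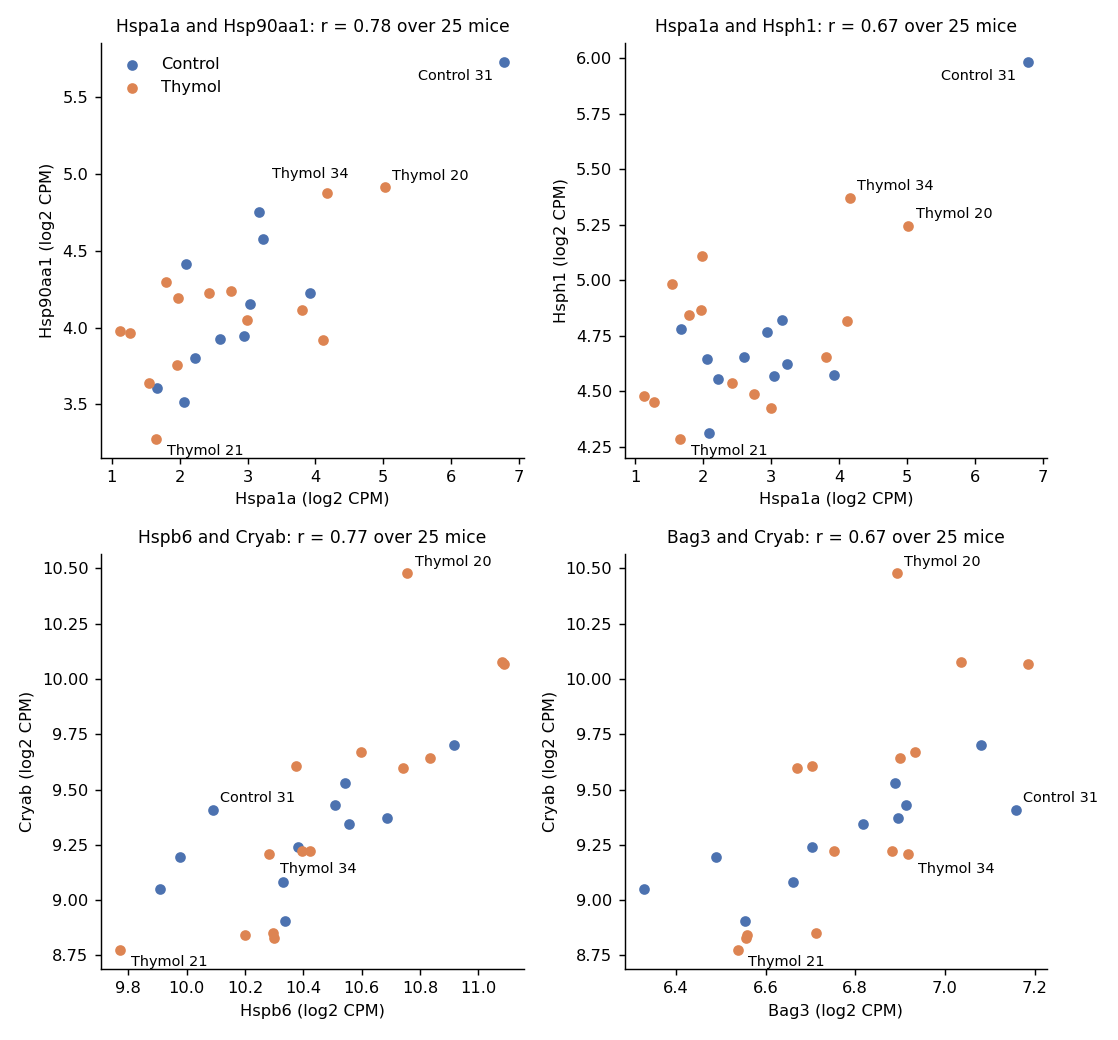
Levels of 4 pairs of members in log2 CPM, 1 point per mouse, Control in blue and Thymol in orange, with 4 mice named. Control 31 sets the upper end for Hspa1a with Hsp90aa1 (r = 0.777) and Hsph1 (r = 0.671), whereas Hspb6 with Cryab (r = 0.775) and Bag3 with Cryab (r = 0.675) run through mice of both groups.

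The genes outside the members that went most closely with each class included J-domain proteins for both. With the mean of the inducible members, each scaled to the same spread, the most similar genes were Dnajb4 (r = 0.716), P4ha1 (0.712), Serpinh1 (0.703), Adam17 (0.695) and Dnajb2 (0.691). Dnajb4 and Dnajb2 are J-domain proteins, Serpinh1 is HSP47, the collagen chaperone of the endoplasmic reticulum, and P4ha1 hydroxylates proline in collagen. Stip1, which joins HSP70 to HSP90, was the closest of the listed co-chaperones (0.669), and Hspa4l the closest of the other HSP70, HSP90 and HSP110 genes (0.666). These values are given without a test, and they share the mice, and with them Control 31, that set the inducible members' own r.

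With the mean of the constitutive members the most similar genes were Dnaja4 (r = 0.867), Csrp3 (0.832), Hspb7 (0.796), Lmcd1 (0.770) and Rnf115 (0.768). Dnaja4 is a J-domain protein, Csrp3 is the muscle LIM protein of the Z-disc, Hspb7 is a small heat-shock protein of striated muscle and Lmcd1 a LIM protein. With Hspb6 alone, Hspb7 (r = 0.836, permutation p = 1e-05, adjusted 0.00883) and Actn2, α-actinin of the Z-disc (0.807, adjusted 0.00883), passed among the listed chaperones and their sarcomere partners, together with Dnaja4 (0.718, adjusted 0.0152). With Cryab, Hspb7 (0.829, permutation adjusted p = 0.0221), Dnaja4 (0.788, adjusted 0.0221) and Flnc, the filamin that BAG3 helps to clear (0.744, adjusted 0.0386), passed. Of 86 listed genes 3 thus passed with Hspb6 and 3 with Cryab, all with a positive r, beside 0.759% and 0.159% of the table. Hspb7 and Dnaja4 were in both sets. None of the listed genes passed with another member.

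Of the marker lists, the muscle-fiber and slow-fiber lists were closest to Hspb6, the slow-fiber list passing by rank only. Over 72 relations of the 8 members with 7 marker lists, the depth and the library number, Hspb6 was lower where the muscle-fiber list, most of whose genes are of fast fibers, was higher (r = -0.66, permutation p = 0.00032, adjusted over the 72 relations 0.023, and rho = -0.68, adjusted 0.013). This r was -0.58 without the 2 farthest mice, -0.70 in Control and -0.65 in Thymol mice. Single genes of the muscle-fiber list had r with Hspb6 from -0.79 to 0.13, with a median of -0.53, and 2 of 8 passed among all genes. Among all genes, the most negative r with Hspb6 were those of Atp2a1, the calcium pump of fast fibers (-0.81, permutation adjusted p = 0.00883), and Actn3, the fast-fiber α-actinin (-0.79, adjusted 0.00883). Actn3 is itself a gene of the muscle-fiber list, so it adds nothing separate to that relation. With the slow-fiber list Hspb6 had r of 0.457 (permutation p = 0.0216, adjusted 0.311) and rho of 0.665 (permutation p = 0.00036, adjusted 0.013). Without Thymol 20 and Thymol 6 that r was 0.767, and for Cryab it was 0.154 over all mice and 0.806 without those 2. Thymol 20 had the lowest slow-fiber level, a mean of 3.41 log2 CPM over the list, together with the highest Cryab. With the slow-fiber list removed from each gene by a straight line, a setting chosen after seeing the data, the r of Hspb6 and Cryab was 0.802. That line was fitted over all mice, Thymol 20 included, where Cryab had r of only 0.154 with the list, so it took little from Cryab. The muscle-fiber list was not removed. The value of 0.802 is therefore not an r freed of fiber type, and the part of fiber type in these levels was not tested further.

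The closest relation of Hspa1a to a marker list was with the immediate-early transcripts, a list of 9 measured genes that handling or contraction can induce. Single genes of the list had r with Hspa1a from 0.135 to 0.689, with a median of 0.217 and Atf3 the highest. Their differences, Thymol minus Control, ran from -0.70 log2 for Atf3 to 0.04 log2 for Fos. The r of Hspa1a with the mean of the list was 0.541 (permutation p = 0.00537, adjusted 0.193) and its rho 0.593 (permutation p = 0.00216, adjusted 0.0518), neither of which passed over the 72 relations. The r was 0.445 in Control and 0.597 in Thymol mice. The other members had no relation to this list with an adjusted p under 0.05, and with it removed by a straight line the r of Hspa1a and Hsp90aa1 was 0.743. Dnajb1 had an r of 0.501 with the erythrocyte list (permutation p = 0.01, adjusted 0.24).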

How the data were processed

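Gastrocnemius RNA of 25 mice was profiled by 3′ mRNA sequencing. The authors aligned reads to GRCm38 with STAR 2.5.3, counted them with HTSeq 0.6.1, kept annotated genes with at least 30 reads in at least 6 samples, and scaled libraries by the trimmed mean of M-values. The deposited values are log2 CPM. Whole reads were recovered from their steps for 100% of values (within 0.01 read), a value of 0 reads stands at -1.90, and about 2 reads had been added to each count, so a fold change of a low gene such as Hspa1a is understated. Depth was 4463818 to 9463418 reads. Negative binomial tests were not run, since the deposited unit is a log value, and limma 3.58.1 in R 4.3.3 with a mean-variance trend was used, two-sided, over 8829 genes. Groups come from the sample titles. The labels do not say whether mice shared a cage or litter.

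Correlations were tested by permuting mice (numpy 2.4.6) with Benjamini-Hochberg adjustment. Scripts were tested on simulated data. Alternatives were 2 other normalizations, other filters, offsets, moderation and weights, voom on the recovered reads, covariates, a block, and leaving out each mouse. The members, classes and lists were chosen with earlier results of these data known. Named genes were all members, the 5 genes most like each class, and of each chaperone list those with the smallest unadjusted p under 0.05 or the highest r. Atp2a1, Actn3, Actn2 with Hspb6, and the genes most like single members were named after their values were seen. Gene positions come from GENCODE M21 and promoters from RefSeq. Promoters of Cryab and Hsp90aa1 were not analysed here.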

Additional observations from a re-analysis of the deposited data

How the results depend on the processing

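No member passed an adjusted p under 0.05 in limma under any of the 13 alternatives or with any of the 25 mice left out. Neither did any gene of the table (0 in each). Among the 13, the alternative without a filter was the same fit as the main one and could not differ from it. Hspa1a and Dnajb1 were too low for the upper 75% of genes by mean and were not tested there. Genes with an unadjusted p under 0.05 numbered 312, 234 among the 75% with the highest mean, 373 with the immediate-early covariate, and 287 to 348 with a mouse left out. With the first number of the label as a replicate block, 2 members had an unadjusted p under 0.05, Hspa1a (-1.07 log2, p = 0.00543, limma adjusted 0.9997) and Dnajb1 (-0.39 log2, p = 0.0457). Hspa1a was lower in the Thymol mouse in 8 of 9 pairs across groups with the same number, some of which share a mouse. The labels do not say what that number stands for, and 7 numbers occur in both groups. Over all genes, mice of the 2 groups that share one deviated from their group means with a median r of 0.053. For pairs with different numbers the median was -0.0089. The r was over 0.1 in 1 of 9 pairs, and 0 of 16 such mice were closest to a mouse with its own number, so the pairing is not shown. Differences that changed sign were those of Hspb1 (-0.0435 with sample weights, -0.341 with the block, -0.0799 to 0.156 with a mouse left out), Hsph1 (-0.0142 with sample weights, -0.0706 with the block, -0.00536 with the slow-fiber covariate, -0.0457 to 0.125 with a mouse left out) and Hspa1a (0.0205 with the immediate-early covariate). With a mouse left out Hsp90aa1 ran from -0.209 to 0.0119 and Bag3 from -0.0137 to 0.0692.

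The inducible minus constitutive difference kept its sign, from -0.31 to -0.15 with a mouse left out. The SD of Hspa1a ran from 1.04 (without Control 31) to 1.33. Pairs of members with p under 0.05 numbered 12 to 15 with a mouse left out, and 9 within each group alone. The r that changed sign were near 0 over all mice. Hsph1 with Dnajb1 was -0.171 in Thymol mice, -0.366 without the 2 farthest mice and -0.224 to 0.152 with a mouse left out. Hsph1 with Hspb6 was -0.42 in Control mice, 0.499 in Thymol mice, 0.464 without the 2 farthest mice and -0.0373 to 0.332 with a mouse left out, and Hsp90aa1 with Hspb6 was -0.00473 to 0.38. Hsp90aa1 with Dnajb1 was -0.0219 with group means removed, -0.137 in Thymol mice, -0.0711 with the immediate-early list removed, -0.219 without the 2 farthest mice and -0.204 to 0.149 with a mouse left out. Dnajb1 with Bag3 was -0.00713 after quantile normalization, -0.0492 in Control mice, -0.0388 with the slow-fiber list removed, -0.0673 with the immediate-early list removed and -0.0876 to 0.187 with a mouse left out. Dnajb1 with Hspb1 was -0.00606 after quantile normalization, -0.00221 after median centring, -0.0681 with the immediate-early list removed and -0.106 to 0.209 with a mouse left out. The cause of these changes was not tested. Hspa1a rested on 14 reads in its lowest mouse, which limits its precision there.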

Other observations

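No gene passed after adjustment with Dnajb1, and the genes here were named after their values were seen. Among those with the highest r were Id1 (r = 0.724), Slc38a2 (0.711), Klf2 (0.701) and Aqp1 (0.698) (permutation adjusted p of 0.147 to 0.202). The endothelial list had r of 0.0396 with Dnajb1. Mob1b had the most negative r with Dnajb1, -0.84, at the smallest p that 100000 draws can give, 1e-05, which is 0.0883 after adjustment.

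Hsph1 was most similar to Parp3 (r = 0.799), Stip1 (0.793) and Hsp90ab1, the constitutive cytosolic HSP90 (0.703), with permutation adjusted p of 0.0883, 0.11 and 0.11. Hspb1 was most similar to Fam20c (0.681) and Dynll1 (0.670), neither of which passed after adjustment (permutation, 0.324 and 0.344). Atf3, a stress-induced factor of the immediate-early list, was among the genes most like Hspa1a, with r of 0.689 and rho of 0.792 (permutation p of r 0.00021, adjusted 0.287).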
